A study of Mus musculus with 2 samples.

Results

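The genes described here are 10 factors that marrow cells secrete or make for release: Tgfb1, Tnf, Il1b, Hgf, Vegfa, Osm, Csf1, Angpt1, Pdgfa and Hdc. They were taken by name from a fixed list of 10 symbols out of 24014 in the tables, and all 10 were found in both libraries. The list was chosen with earlier results of these data known. Hdc codes for histidine decarboxylase, the enzyme that makes histamine, and the other members code for the secreted proteins themselves. The question was which marrow cells hold the transcripts of each factor, and how the level in those cells compares between a high-fat and a normal diet.

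The high-fat diet library (HFD) came from bone marrow of male wild-type mice that ate a diet with 60% fat for 16 weeks. The normal diet library (ND) came from male wild-type mice on chow over the same period. The labels give the strain as C57B/6 for both, and name neither the number of animals nor any pooling, sort or gate. There was 1 library per diet, made on the BD Rhapsody platform, which counts messenger RNA molecules (unique molecular identifiers, UMIs) in single cells. The HFD library held 17282 cells and 117773643 RNA UMIs, and the ND library held 16817 cells and 117999042 RNA UMIs. After filtering, 15214 HFD cells with a median of 4076 UMIs and 13890 ND cells with a median of 4480 UMIs remained.

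Cells were grouped into 32 clusters, without using the 10 members, and a cluster took the name of a cell class, with the suffix "-like", only from marker genes. This left 19 named classes and 2 unnamed clusters with at least 100 cells in both libraries. Levels are UMIs of a gene per 1000000 UMIs of the class (CPM), with exact 95% Poisson intervals, and a ratio is the log2 of HFD over ND with an exact binomial 95% interval. These intervals cover counting error only. With 1 library per diet there is no spread between animals and no test, so every difference describes these libraries and not the diets in general. To be called in a class, a gene needed 20 or more UMIs over both libraries, a change of 1.5-fold or more in either direction and an interval without 0. The members differ in transcript length and were not compared with each other in level.

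As background, many marrow factors act on cells near the one that releases them, so the source cell matters. CSF1 sustains monocytes and macrophages through the receptor Csf1r. HGF signals through Met, and ANGPT1, through the receptor Tek, is known for keeping blood stem cells quiescent. Oncostatin M (Osm) belongs to the IL-6 family, and IL-1 beta and TNF are inflammatory cytokines. VEGFA and PDGFA act on vessels and stroma, and TGF-beta 1 is made in a latent form that must be activated outside the cell.

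**Figure D1:**
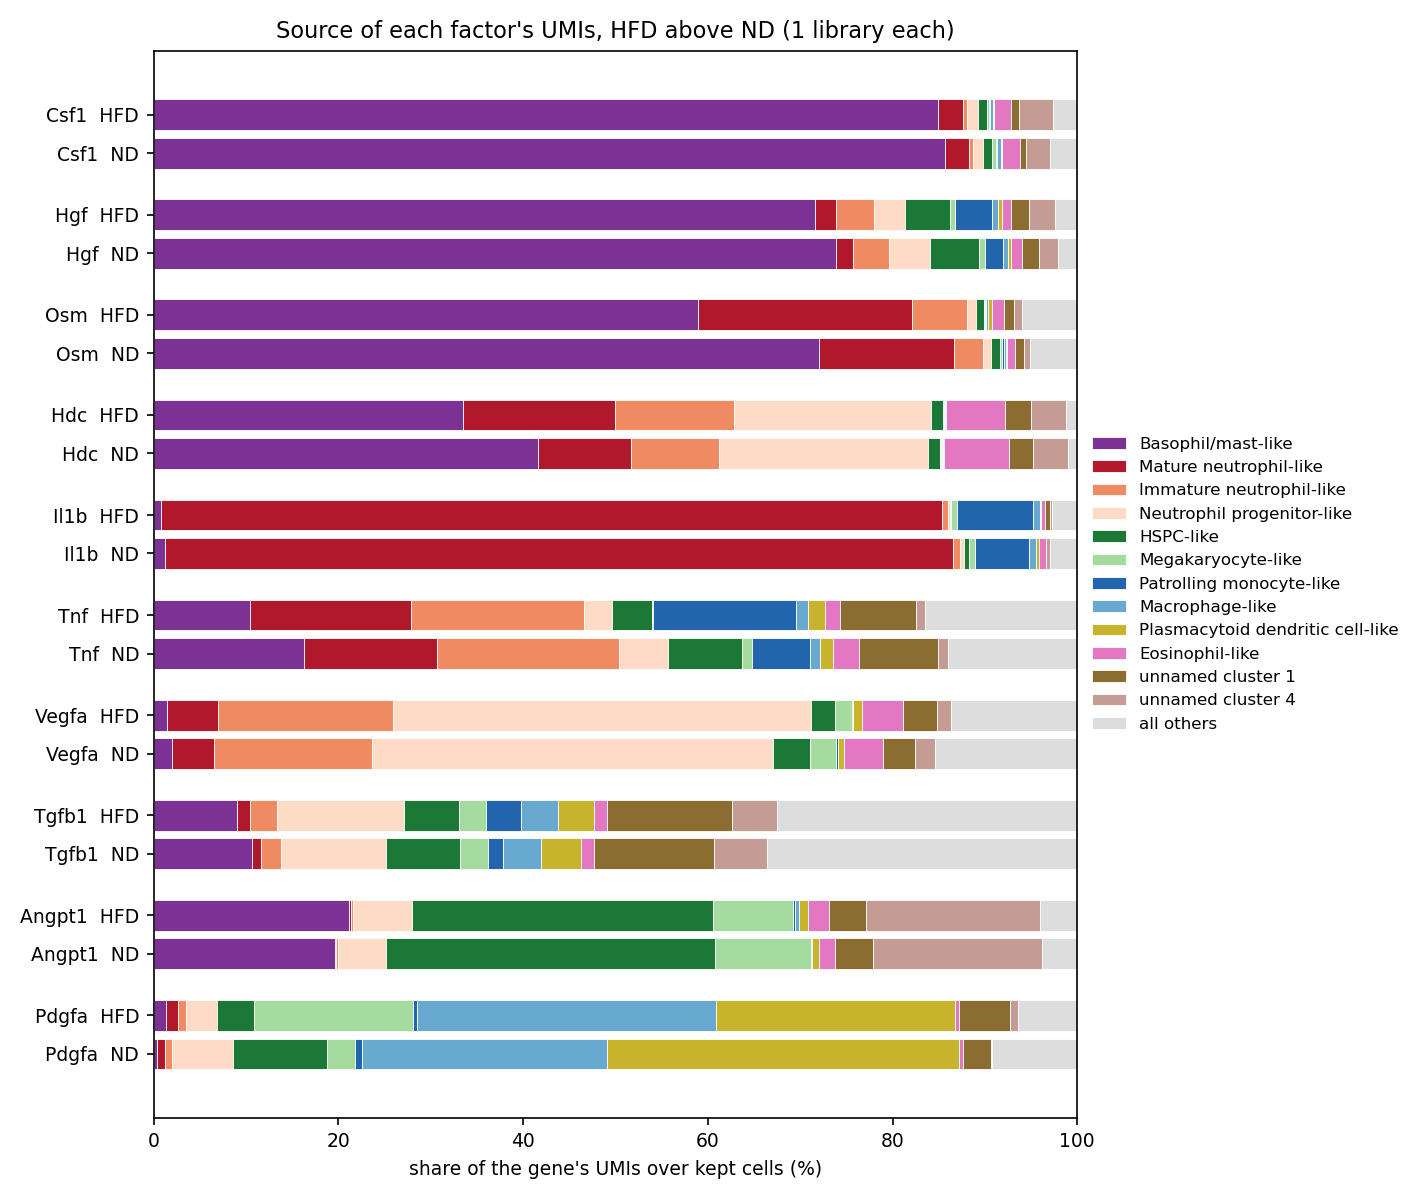
Share of each gene's UMIs (%, horizontal axis) found in each cell class, with the HFD bar above the ND bar for each gene and 1 library per diet. Basophil or mast cell-like cells held 84.9% of Csf1 UMIs in HFD and 85.7% in ND, and mature neutrophil-like cells held 84.5% of Il1b UMIs in HFD and 85.3% in ND, while Tgfb1 was spread over many classes.

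Among the kept cells, basophil or mast cell-like cells were the leading source of 4 members, Csf1, Hgf, Osm and Hdc. They were 9.33% of HFD cells (1420 cells) and 10.5% of ND cells (1458 cells). They consisted of a protease-rich cluster led by Mcpt8, Prss34 and Cpa3 (cluster 13) and a chemokine-rich cluster led by Ccl4 and Ccl3 (cluster 29). Mature neutrophil markers in these cells summed to 913 CPM in HFD and 858 CPM in ND, against 64015 CPM in HFD and 62060 CPM in ND within the mature neutrophil-like class itself. A share of a gene's UMIs depends on which cells were loaded. The sources given here therefore describe the kept cells and not whole marrow. Stromal-like cells, for one, numbered only 10 in HFD and 11 in ND.

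Osm was lower in the HFD basophil or mast cell-like cells. It stood at 527 CPM (511 to 543, 4282 UMIs) in HFD and at 825 CPM (806 to 845, 6986 UMIs) in ND, a log2 ratio of -0.65 (-0.70 to -0.59). The 2 intervals do not overlap. This was 1 of 9 members compared in the class, beside 3.2% of all genes called there. Osm was the only member called in its own leading class.

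The difference lay in both clusters of the class, although the call was met in one of them. In the chemokine-rich cluster Osm stood at 1187 CPM (1147 to 1229) in HFD and at 1884 CPM (1834 to 1935) in ND, a called log2 ratio of -0.67 (-0.73 to -0.60) beside 4.4% of all genes called in that cluster. In the protease-rich cluster it stood at 195 CPM (183 to 207) in HFD and 278 CPM (265 to 293) in ND, and the log2 ratio of -0.51 (-0.63 to -0.40) was under 1.5-fold. The highest single cell held 37 Osm UMIs in HFD and 40 in ND, and leaving those cells out gave -0.65 again. For thinning, cells with at least 1000 UMIs were cut to 1000 UMIs and the others were left out. Of the thinned cells of the class, 39.1% in HFD and 51.0% in ND held an Osm UMI. Over all cells of the class, unthinned, the shares were 68.0% in HFD and 75.4% in ND, at medians of 4066 and 4013 UMIs. In B cell-like cells, given for comparison, the unthinned shares were 2.83% in HFD and 3.18% in ND, at medians of 2211 UMIs in HFD and 2234 UMIs in ND. These were not the lowest shares of the classes, and the part of free RNA in them was not tested.

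The share of the library's Osm in the class also differed between the libraries. It held 58.9% of all Osm UMIs in HFD and 72.0% in ND. Per 1000 kept cells of any class, it carried 281 Osm UMIs in HFD and 503 in ND. Over all kept cells, Osm had a log2 ratio of -0.43 (-0.47 to -0.39), which was under the 1.5-fold needed.

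Csf1, Hgf and Hdc showed no called difference in the same cells. Csf1 stood at 917 CPM (896 to 938) in HFD and 872 CPM (853 to 893) in ND, a log2 ratio of 0.07 (0.03 to 0.12). Hgf stood at 283 CPM (272 to 295) in HFD and 290 CPM (278 to 301) in ND, a log2 ratio of -0.03 (-0.11 to 0.05). It was called in none of 14 classes compared, beside 4.9% of all gene and class pairs. Hdc stood at 972 CPM (950 to 993) in HFD and 964 CPM (943 to 985) in ND, a log2 ratio of 0.01 (-0.03 to 0.06). The upper and lower bounds of all 3 intervals lie well inside a 1.5-fold change in either direction.

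**Figure D2:**
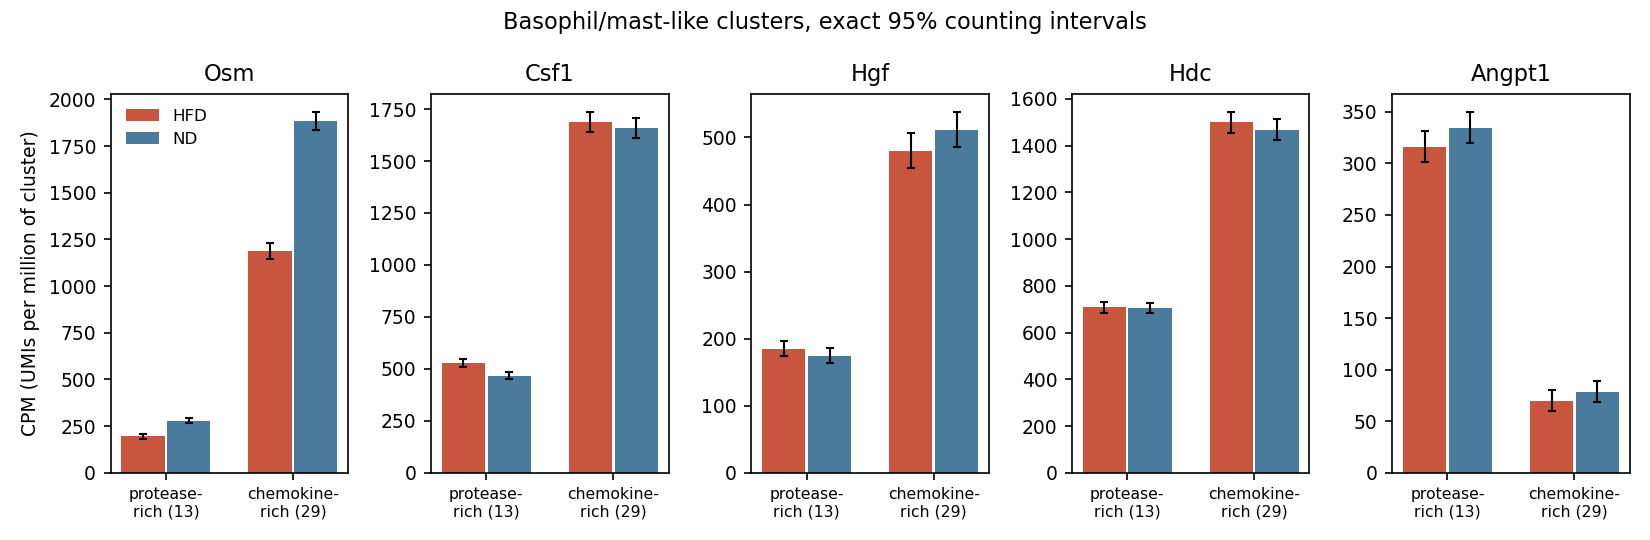
Level of 5 members (CPM, vertical axis, each panel with its own scale) in the protease-rich and the chemokine-rich basophil or mast cell-like cluster, with HFD left of ND and exact 95% counting intervals as bars. Osm is the member whose intervals are furthest apart, at 1187 CPM in HFD and 1884 CPM in ND in the chemokine-rich cluster.

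The 2 basophil or mast cell-like clusters differed in which factors they carried. The chemokine-rich cluster had the higher level of Csf1, with 1688 CPM in HFD and 1658 CPM in ND, against 530 CPM in HFD and 467 CPM in ND in the protease-rich cluster. Hgf followed the same order, with 480 CPM in HFD and 512 CPM in ND in the chemokine-rich cluster and 185 CPM in HFD and 175 CPM in ND in the protease-rich one. Angpt1 ran the other way, with 69.6 CPM in HFD and 78.0 CPM in ND in the chemokine-rich cluster and 316 CPM in HFD and 335 CPM in ND in the protease-rich one. These are descriptions of clusters built from the same cells, and no test was made.

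The basophil source was the most one-sided for Csf1. The class held 84.9% of Csf1 UMIs in HFD and 85.7% in ND, and the next source, unnamed cluster 4, held 3.64% in HFD and 2.62% in ND. For Hgf the class held 71.6% in HFD and 73.8% in ND, and HSPC-like cells (blood stem and progenitor cells) came next with 4.88% in HFD and 5.36% in ND. For Hdc it held 33.5% in HFD and 41.6% in ND, since the neutrophil line and eosinophil-like cells also carried that gene.

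Over the 19 named classes, the genes whose level was most like that of Csf1 were Il4, Fcer1a and Samd13, with Pearson r of 0.90, 0.88 and 0.87 on log2(CPM + 10). Fcer1a codes for the alpha chain of the high-affinity IgE receptor of basophils and mast cells, and Il4 for the cytokine IL-4. Csf1 was itself among the 3 genes most like Osm (0.86), after Foxq1 (0.87) and Lilr4b (0.86). The genes nearest to Hgf were Ifitm1 (0.86), Ier3 (0.85) and Chrm1 (0.85), and those near to Hdc included Chst13 (0.95) and Rab44 (0.94). The classes share the same 2 libraries, and few of them carry most of the signal, so these values describe the pattern only.

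Il1b was a gene of mature neutrophil-like cells. They held 84.5% of Il1b UMIs in HFD and 85.3% in ND. Nearly all of this sat in 1 cluster led by Il1b, Stfa2l1 and the chemokine receptor Cxcr2 (cluster 26; clustering did not use Il1b), with 83.2% of Il1b UMIs in HFD and 83.6% in ND. Patrolling monocyte-like cells were second, with 8.29% in HFD and 5.85% in ND.

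Over all kept cells Il1b was higher in HFD, at 32.6 CPM in HFD and 18.9 CPM in ND, a log2 ratio of 0.79 (0.71 to 0.87). It was the only member called over all kept cells, where 6.71% of all genes were called. Inside cluster 26 it stood at 1028 CPM (992 to 1066) in HFD and 1054 CPM (1005 to 1105) in ND, a log2 ratio of -0.04 (-0.12 to 0.05). The cluster made up 8.41% of HFD cells (1279 cells) and 5.02% of ND cells (697 cells). Each 100 of its cells carried 234 Il1b UMIs in HFD and 248 in ND. The share of cluster 26 cells therefore differed between the libraries while its Il1b level did not differ beyond counting error, and a share of cells depends on which cells were loaded.

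The class as a whole gave a log2 ratio of 0.25 (0.17 to 0.34) for Il1b, with 593 CPM in HFD and 498 CPM in ND. With the 2 mature clusters weighted alike in the libraries, this was -0.03. In B cell-like cells, 0.41% of HFD cells and 0.62% of ND cells held an Il1b UMI, against 40.2% of HFD and 33.5% of ND mature neutrophil-like cells, at medians of 2558 UMIs in HFD and 2839 UMIs in ND. Il1b was most like Vnn3 (r = 0.92), Tgm3 (0.92) and Sfxn5 (0.92) over the classes.

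**Figure D3:**
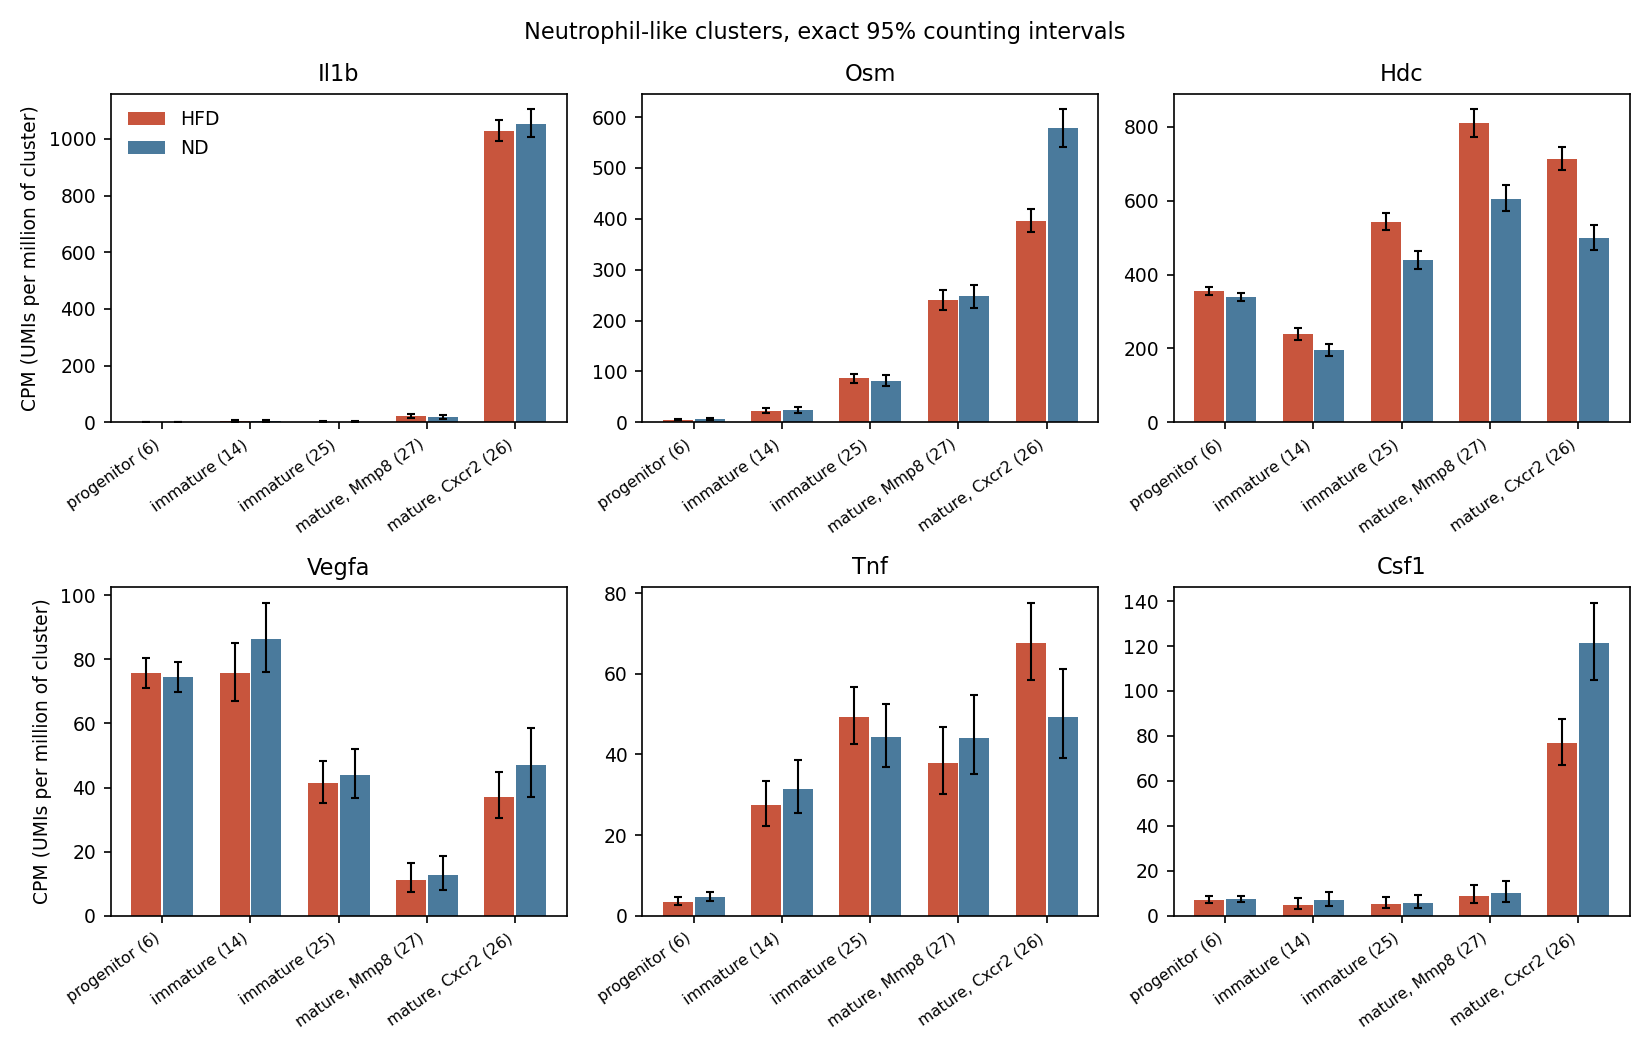
Level of 6 members (CPM, vertical axis, each panel with its own scale) in 5 neutrophil-like clusters, from the progenitor-like cluster on the left to the Cxcr2-rich mature cluster on the right, with HFD left of ND and exact 95% counting intervals as bars. Il1b reached 1028 CPM in HFD and 1054 CPM in ND in the Cxcr2-rich cluster and at most 21.6 CPM in HFD and 17.9 CPM in ND in the other clusters drawn.

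Osm, Csf1 and Hdc were also found in the mature neutrophil-like cells. Mature neutrophil-like cells held 23.2% of Osm UMIs in HFD and 14.6% in ND, with 328 CPM (313 to 344) in HFD and 400 CPM (380 to 422) in ND, a log2 ratio of -0.29 (-0.39 to -0.18). In cluster 26 Osm stood at 396 CPM in HFD and 577 CPM in ND, a log2 ratio of -0.54 (-0.67 to -0.42) that did not reach 1.5-fold. In the other mature cluster, led by Mmp8, Retnlg and Mmp9 (cluster 27), Osm stood at 240 CPM in HFD and 247 CPM in ND (-0.04, -0.23 to 0.14). The difference between the 2 clusters was not tested.

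Csf1 was called lower in HFD in cluster 26, with 76.8 CPM (67.1 to 87.5, 224 UMIs) in HFD and 121 CPM (105 to 139, 199 UMIs) in ND, a log2 ratio of -0.66 (-0.94 to -0.38). The highest single cell held 12 of these UMIs in HFD and 41 in ND. Without the highest cell of each library the levels were 72.7 CPM in HFD and 96.4 CPM in ND, and the ratio of -0.41 (-0.71 to -0.10) was no longer called. Csf1 was the only member called in that cluster, beside 5.88% of all genes. Over the whole mature class the ratio was -0.37 (-0.64 to -0.10), which was not called, and without the highest cells it was -0.15 (-0.44 to 0.14).

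Hdc had log2 ratios above 0 along the neutrophil line, all under 1.5-fold. In mature neutrophil-like cells it stood at 755 CPM (732 to 780) in HFD and 557 CPM (532 to 582) in ND, a log2 ratio of 0.44 (0.36 to 0.52). In immature neutrophil-like cells it stood at 392 CPM (378 to 406) in HFD and 317 CPM (303 to 331) in ND (0.31, 0.22 to 0.39). In neutrophil progenitor-like cells it stood at 356 CPM (346 to 366) in HFD and 339 CPM (330 to 350) in ND (0.07, 0.01 to 0.13). The neutrophil line together with eosinophil-like cells (6.43% of Hdc UMIs in HFD, 7.08% in ND) carried more Hdc UMIs than the basophil or mast cell-like class in both libraries.

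Most Vegfa UMIs lay in the early neutrophil line, although other classes also carried the gene. Neutrophil progenitor-like cells, marked by Elane, Prtn3 and Mpo, held 45.3% of Vegfa UMIs in HFD and 43.4% in ND. They stood at 75.6 CPM (71.2 to 80.3) in HFD and 74.4 CPM (69.8 to 79.3) in ND, a log2 ratio of 0.02 (-0.10 to 0.15). Immature neutrophil-like cells followed with 18.9% in HFD and 17.2% in ND, at 57.4 CPM in HFD and 65.0 CPM in ND (-0.18, -0.38 to 0.02). In mature neutrophil-like cells the level was 25.9 CPM in HFD and 28.5 CPM in ND. Eosinophil-like cells stood at 56.5 CPM in HFD and 52.8 CPM in ND without the highest cell of each library. Pro- and pre-B cell-like cells then stood at 42.9 CPM in HFD and 32.8 CPM in ND. No Vegfa pair was called in 16 classes compared, beside 4.9% of all gene and class pairs. Mcu (r = 0.84), Ppp2cb (0.82) and Tst (0.81) were most like Vegfa.

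Tnf had no single source. Immature neutrophil-like cells held 18.8% of its UMIs in HFD and 19.6% in ND, mature ones 17.5% in HFD and 14.4% in ND, and basophil or mast cell-like cells 10.4% in HFD and 16.3% in ND. Patrolling monocyte-like cells, marked by Ace and Adgre4, held 15.5% in HFD and 6.28% in ND. In HFD and in ND their Tnf level was the highest of the classes compared, at 70.9 CPM (62.4 to 80.3, 250 UMIs) in HFD and 48.2 CPM (37.7 to 60.6, 72 UMIs) in ND. The log2 ratio was 0.56 (0.18 to 0.96), just under 1.5-fold, and these cells were 7.09% of HFD cells and 3.43% of ND cells. In HFD the next level, 54.7 CPM (48.5 to 61.4) in mature neutrophil-like cells, lay below its interval. In ND the next level, 46.6 CPM (39.7 to 54.2) in mature neutrophil-like cells, was inside its interval. The mature class joins 2 clusters, and cluster 26 alone came nearer to the patrolling monocyte-like level. Without the highest cell of each library, Tnf stood at 65.2 CPM in HFD and 47.0 CPM in ND in cluster 26. Patrolling monocyte-like cells then stood at 69.3 CPM in HFD and 47.1 CPM in ND. Cd300lb (r = 0.88), Fosl2 (0.88) and Mapk3 (0.87) were most like Tnf.

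Tnf was higher in HFD in the 2 dendritic classes. Conventional dendritic cell-like cells held 63 UMIs in HFD and 21 in ND, a log2 ratio of 1.56 (0.83 to 2.35). One HFD cell held 28 of those UMIs, and without the highest cell of each library the ratio was 0.86 (0.01 to 1.75). Plasmacytoid dendritic cell-like cells held 31 UMIs in HFD and 16 in ND (1.15), and without the highest cells the ratio was 0.87 and no longer called. In their cluster led by Siglech and Ccr9 (cluster 30), the Tnf ratio was 2.95 and called, beside 5.43% of all genes. Without the highest cells, cluster 30 held 18 Tnf UMIs in HFD and 3 in ND, and the ratio of 2.89 (1.11 to 5.29) was still called. The other plasmacytoid cluster held fewer Tnf UMIs in HFD than in ND, and under the 20 needed for a call. The share of genes called was 4.27% in the conventional and 3.82% in the plasmacytoid class.

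Tgfb1 was the most evenly spread member. Unnamed cluster 1, led by F13a1 and Cd34, held 13.6% of its UMIs in HFD and 12.9% in ND, and neutrophil progenitor-like cells held 13.8% in HFD and 11.3% in ND. Erythroid-like cells were a further source. Without the highest cell of each library, their cluster 0 alone held 213 Tgfb1 UMIs in HFD and 274 in ND. Neutrophil progenitor-like cells then held 404 in HFD and 275 in ND. The highest level was in B cell-like cells, at 71.3 CPM (62.0 to 81.5) in HFD and 52.6 CPM (43.8 to 62.6) in ND. Megakaryocyte-like cells followed at 52.6 CPM in HFD, and in ND pro- and pre-B cell-like cells followed at 44.9 CPM.

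The Tgfb1 ratio was above 0 in 17 of 19 classes compared, with a median of 0.23. None was called, beside 4.9% of all gene and class pairs. The lowest was -0.04 and the highest 0.44. In B cell-like cells the interval was 0.11 to 0.77. In neutrophil progenitor-like cells it stood at 28.9 CPM (26.2 to 31.9) in HFD and 21.4 CPM (19.0 to 24.1) in ND, a log2 ratio of 0.44 (0.21 to 0.66). The classes come from the same 2 libraries and are not replicates. Szrd1 (r = 0.89), Ten1 (0.85) and Ube2d2a (0.85) were most like Tgfb1.

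Angpt1 was shared by stem and progenitor cells, megakaryocytes and the basophil line. HSPC-like cells held 32.5% of its UMIs in HFD and 35.6% in ND, basophil or mast cell-like cells 21.2% in HFD and 19.7% in ND, and unnamed cluster 4, led by Slc22a3, Scin and Muc13, 18.8% in HFD and 18.2% in ND. Megakaryocyte-like cells held 8.71% in HFD and 10.4% in ND while being 0.77% of HFD cells and 1.04% of ND cells. Ccdc8 (r = 0.95), Slc22a3 (0.94) and Ccdc40 (0.93) were most like it.

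The Angpt1 ratio was below 0 in these sources without a call. HSPC-like cells stood at 452 CPM (436 to 469) in HFD and 538 CPM (521 to 555) in ND, a log2 ratio of -0.25 (-0.32 to -0.18). Megakaryocyte-like cells stood at 472 CPM (439 to 506) in HFD and 598 CPM (563 to 634) in ND (-0.34, -0.48 to -0.21). Unnamed cluster 4 stood at 444 CPM (423 to 466) in HFD and 506 CPM (484 to 529) in ND (-0.19, -0.28 to -0.09). In HSPC-like cells thinned to 1000 UMIs the ratio was 0.01 (-0.20 to 0.22). The intervals of these 3 levels overlapped in HFD, and in ND the megakaryocyte-like level lay above the other two.

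Pdgfa was the rarest member, with 452 UMIs in kept HFD cells and 501 in kept ND cells. Its UMIs came from plasmacytoid dendritic cell-like cells (25.9% in HFD, 38.1% in ND) and macrophage-like cells (32.3% in HFD, 26.5% in ND). In plasmacytoid dendritic cell-like cells it stood at 28.6 CPM (23.7 to 34.3) in HFD and 40.9 CPM (35.3 to 47.1) in ND, a log2 ratio of -0.52 (-0.86 to -0.18). In macrophage-like cells it stood at 46.0 CPM (38.9 to 54.1) in HFD and 42.6 CPM (35.7 to 50.5) in ND (0.11, -0.24 to 0.46). Of the 2 plasmacytoid clusters, the one led by Siglech and Ccr9 (cluster 30) had lower Pdgfa in HFD, with 67 UMIs in HFD and 129 in ND, a called ratio of -0.64 (-1.09 to -0.21) beside 5.43% of all genes. The other (cluster 12) stood at 18.4 CPM in HFD and 20.8 CPM in ND (-0.18, -0.74 to 0.38). P2ry12 (r = 0.96), Itsn1 (0.91) and Maged1 (0.85) were most like it.

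Pdgfa was higher in HFD in megakaryocyte-like cells and lower in 2 progenitor classes. Megakaryocyte-like cells held 78 UMIs in 17 of 117 HFD cells and 15 UMIs in 8 of 144 ND cells, a log2 ratio of 2.54 (1.73 to 3.45). One HFD cell held 30 of those UMIs, and without the highest cell of each library the ratio was 2.44 (1.44 to 3.59). In HSPC-like cells there were 18 UMIs in HFD and 51 in ND (-1.37, -2.24 to -0.57), and in neutrophil progenitor-like cells 15 in HFD and 33 in ND (-1.26, -2.24 to -0.34). Megakaryocyte markers summed to 18528 CPM in HFD and 9321 CPM in ND in the megakaryocyte-like cells, with none of the 11 markers at 0, and their part in the Pdgfa value was not tested. Among all genes, 10.5% were called in megakaryocyte-like cells, 3.77% in HSPC-like cells and 3.26% in neutrophil progenitor-like cells.

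**Figure D4:**
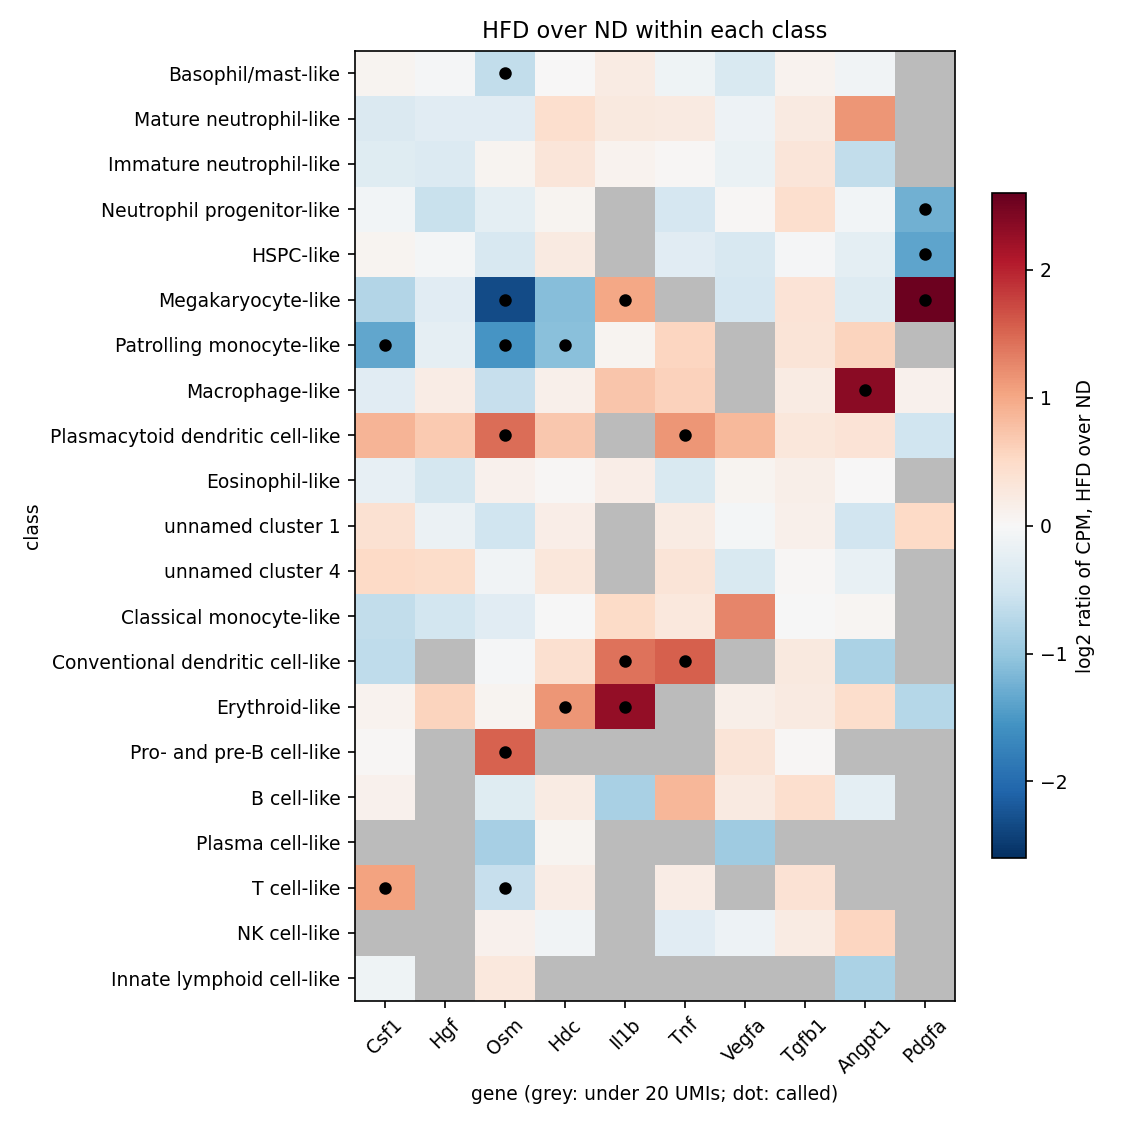
Log2 ratio of CPM, HFD over ND (colour), for the 10 members (horizontal axis) in the 19 named classes and 2 unnamed clusters (vertical axis). Dots mark the 19 called pairs and grey squares pairs with under 20 UMIs. Most dots lie outside the classes that supply the gene.

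Of 210 possible pairs of member and class, 160 had enough UMIs. Of these, 11 were called higher and 8 lower in HFD, which is 11.9%, beside 4.9% of all 205344 gene and class pairs. The members were chosen with earlier results of these data known, so no conclusion is drawn from these 2 shares. At a minimum of 100 UMIs, 1 pair was called higher and 2 lower out of 83. The share over all genes at that minimum was not computed. Most of the called pairs had few UMIs. Of the 19, 16 rested on under 100 UMIs, and 7 were no longer called without the cell that held the most UMIs in each library. These 7 were Tnf in plasmacytoid dendritic cell-like cells (0.87), Osm in the same class (1.00) and in patrolling monocyte-like cells (-1.41), Il1b in conventional dendritic cell-like cells (0.98) and megakaryocyte-like cells (0.94), and Csf1 (-1.25) and Hdc (-0.78) in patrolling monocyte-like cells. The Il1b pair in conventional dendritic cell-like cells and the Osm pair in patrolling monocyte-like cells then had under 20 UMIs. Leaving out these cells also added 2 calls, Il1b in classical monocyte-like cells (1.67) and Csf1 in megakaryocyte-like cells (-1.97). Only 1 of the 19, Osm in basophil or mast cell-like cells, was in the leading class of its gene.

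The other called pairs were small sources. Il1b was higher in erythroid-like cells (23 UMIs in HFD, 7 in ND, log2 ratio 2.29), megakaryocyte-like cells (25 in HFD, 14 in ND, 1.00) and conventional dendritic cell-like cells (19 in HFD, 7 in ND, 1.42). In erythroid-like cells the level of 1.37 CPM in HFD was below the 1.64 CPM that their S100a8 would bring along as free neutrophil RNA. In ND the level was 0.28 CPM, below the 0.65 CPM brought along. These brought-along levels use the Il1b to S100a8 ratio of the mature class. They would be too high for free RNA of neutrophil-like cells with less Il1b. Hdc was also higher in erythroid-like cells, with 73 UMIs in HFD and 49 in ND (1.15), beside 4.45% of all genes called there. S100a8 stood at 170 CPM in HFD and 78.1 CPM in ND in these cells. Their 9 mature neutrophil markers summed to 105 CPM in HFD, with 0 of them at 0, and 55.1 CPM in ND, with 1 at 0. Their 8 immature neutrophil markers summed to 183 CPM in HFD and 99.4 CPM in ND. The part of neutrophil RNA in the Il1b and Hdc values was not tested.

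Osm was also lower in T cell-like cells (46 UMIs in HFD, 67 in ND, -0.59), megakaryocyte-like cells (5 in HFD, 28 in ND, -2.32) and patrolling monocyte-like cells (9 in HFD, 11 in ND, -1.53). It was higher in plasmacytoid dendritic cell-like cells (31 in HFD, 13 in ND, 1.45) and pro- and pre-B cell-like cells (23 in HFD, 6 in ND, 1.53). Of all genes, 5.0% were called in T cell-like cells and 5.01% in pro- and pre-B cell-like cells. In megakaryocyte-like cells Mcpt8, a basophil gene, stood at 237 CPM in HFD and 65.2 CPM in ND, and the part of basophil RNA in the Osm value there was not tested.

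Csf1 and Hdc were lower in patrolling monocyte-like cells, where 6.11% of all genes were called. Csf1 held 12 UMIs in HFD and 13 in ND (-1.35), and Hdc held 20 in HFD and 18 in ND (-1.09). Csf1 was higher in T cell-like cells, with 30 UMIs in HFD and 14 in ND (1.05). Angpt1 was higher in macrophage-like cells, with 36 UMIs in HFD and 7 in ND (2.34), beside 5.75% of genes called. The Angpt1 UMIs of the HFD macrophages lay in 11 cells of 1518, with 12 in 1 cell.

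Free RNA from a leading source can give UMIs in other cells. For Il1b, 8 of 21 other classes and clusters lay above the level that their S100a8 would bring along in both libraries. For Csf1 the count was 20 of 21, for Osm 18, for Hgf 17 and for Hdc 17, with Mcpt8 as the tracer. Mcpt8 marks the protease-rich cluster more than the chemokine-rich one, so free RNA of the chemokine-rich cells is followed less well by it. Free RNA of neutrophil-like cells, which also carried Osm and Hdc, is not followed by Mcpt8. These counts therefore cannot tell it apart from a cell's own RNA, and its part was not tested.

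The partners of these factors were described by 7 lists, covering release and activation, receptors and decoys, other secreted factors, and target genes of TGF-beta, NF-kB and STAT3 or STAT5 signalling and of hypoxia. Over the 7 leading classes, 538 pairs of list gene and class had enough UMIs, of which 24 were called higher and 22 lower. That is 8.55%, beside 3.2% to 5.02% of all genes called in these classes. These lists were chosen with earlier results of these data known.

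In basophil or mast cell-like cells 4 of the 83 list genes measured were called higher and 3 lower, beside 3.2% of all genes. Among the receptors and decoys, Csf1r (0.77, 80 UMIs in HFD and 49 in ND) and Il1rn, which codes for the IL-1 receptor antagonist (0.73, 78 in HFD and 49 in ND), were higher. Among the release genes Hgfac, the protease that activates HGF, was lower (-0.70, 55 in HFD and 93 in ND). Of the other secreted factors, Il13 was lower (-1.31, 12 in HFD and 31 in ND). The remaining calls were 1 NF-kB target and 1 STAT3 or STAT5 target higher, and 1 TGF-beta target lower. The median log2 ratio of the receptors and decoys was 0.13 and that of the STAT3 and STAT5 targets was -0.20, beside 0.00 for all genes there.

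In neutrophil progenitor-like cells, where 3.26% of all genes were called, the receptors Met (1.11, 89 UMIs in HFD and 38 in ND) and Nrp1 (1.33, 30 in HFD and 11 in ND), which bind HGF and VEGFA, were higher. The chemokines Ccl3 (-0.78) and Ccl4 (-0.63), the repressor Bcl6 (-0.69) and Ndrg1, a hypoxia gene (-0.80, 196 UMIs in HFD and 315 in ND), were lower. In the same class 1 NF-kB target and 1 of the other secreted factors were called higher. In immature neutrophil-like cells, where 4.01% of all genes were called, Csf1r (1.38, 182 in HFD and 53 in ND) and Ccl3 (1.02) were higher, and no list gene was lower. Csf1r is a monocyte gene as well as the CSF1 receptor, and the part of monocyte RNA in these values was not tested.

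In mature neutrophil-like cells, where 5.02% of all genes were called, Hnmt, which codes for the histamine-degrading enzyme, was higher in HFD at 85.8 CPM against 50.8 CPM in ND, a log2 ratio of 0.76. Nfkb2 (0.95) and Tnfaip3 (0.77), both NF-kB targets, were higher, while Ccl4 was lower (-1.11, 105 UMIs in HFD and 156 in ND). Of 9 TGF-beta target genes measured, Smurf1 (-1.14) and Tgif1 (-0.59) were lower and none was higher, and the list's median was -0.15, beside -0.04 for all genes. The glucose transporter Slc2a1 (-0.71) was lower and Ankrd37 (1.61, 31 UMIs in HFD and 7 in ND) higher among 11 hypoxia genes.

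In HSPC-like cells, where 3.77% of all genes were called, Csf1r was higher (0.78, 24.7 CPM in HFD and 14.3 CPM in ND), as were Socs1 (0.73) and Bcl3 (0.63), while Ccl3 (-0.74), Tnfaip3 (-0.67) and Bcl6 (-0.94) were lower. In plasmacytoid dendritic cell-like cells 3 of 13 NF-kB targets were higher, Nfkb2 (1.00), Ccl3 (0.99) and Ccl4 (0.74), and none was lower, beside 3.82% of all genes called there. The list's median was 0.25, beside 0.01 for all genes. The receptors Tgfbr3 (1.45) and Kdr (0.78), the feedback inhibitor Socs1 (1.36) and the ligand Wnt10b (1.30, 54 UMIs in HFD and 25 in ND) were higher there, and Tgfbi was lower (-2.06). In unnamed cluster 1, where 3.23% of all genes were called, the 7 list genes called were all lower, among them Relb (-1.54), Vegfc (-1.13) and Ccl4 (-0.81).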

How the data were processed

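Bone marrow of male wild-type mice was profiled as 1 single-cell library per diet. The deposited tables hold counts, whole-number UMIs per gene and cell corrected for sequencing errors, and per the file headers the authors ran version 1.9.1 of the BD WTA Rhapsody Analysis Pipeline on a custom reference. No source used here gives the aligner settings, genome build or cell calling, and coordinates are left out.

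Cells below 200 genes or above 25% mitochondrial UMIs were left out. This removed 1632 HFD and 2515 ND cells, and Scrublet removed 436 HFD and 412 ND doublets at an expected rate of 5%. The libraries shared 329 cell indices, none with the same total. Cells were clustered with scanpy 1.11.5 (2000 variable genes, 30 principal components, 15 neighbours, Leiden resolution 1.0), with the 10 members kept out of the variable genes, and classes were named from marker lists. Intervals came from scipy 1.17.1, at 95%. The ratio and call were run on simulated Poisson counts drawn from pooled class profiles. That is the counting model of the intervals, so it checks the code and not how the intervals hold for real cells. UMIs that cluster in few cells are not covered by the intervals.

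Genes named beside the members were the 3 most correlated with each member, among 11351 genes with at least 200 UMIs, and the list genes called in a leading class; 1 correlated gene is not reported here. Leading class means the largest mean share of a member's UMIs. The members and lists were chosen with earlier results of these data known. Brought-along levels scale the member to tracer ratio of its leading class to the tracer found in another class.

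Alternatives were other cell filters, doublets kept, Leiden resolutions 0.5 and 2.0, members used in clustering, other scalings, a mean over cells, thinning to 1000 UMIs, equal cluster weights and UMI minimums of 100 and 1. Leaving out the highest cell was chosen after seeing the data.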

Additional observations from a re-analysis of the deposited data

Results flagged for a closer look

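Of the members, 4 were called higher in HFD in one class and lower in another. The difference between classes was not tested in any of them, since there was 1 library per diet. Osm had a log2 ratio of -0.65 in basophil or mast cell-like, -2.32 in megakaryocyte-like, -1.53 in patrolling monocyte-like and -0.59 in T cell-like cells. It had 1.45 in plasmacytoid dendritic cell-like and 1.53 in pro- and pre-B cell-like cells. Csf1 had 1.05 in T cell-like and -1.35 in patrolling monocyte-like cells. Pdgfa had 2.54 in megakaryocyte-like, -1.37 in HSPC-like and -1.26 in neutrophil progenitor-like cells. Hdc had 1.15 in erythroid-like and -1.09 in patrolling monocyte-like cells. With 1 library per diet, no sample could be compared with others of its group.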

How the results depend on the processing

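Of the 19 called pairs, 1 was called under all 12 alternatives, Osm in basophil or mast cell-like cells (-0.70 to -0.63). Most of the others had under 20 UMIs once thinned and could not be called there. Angpt1 in macrophage-like and Il1b in erythroid-like cells kept the call in all 11 alternatives with a value. So did Tnf in conventional dendritic cell-like cells (10) and Osm and Pdgfa in megakaryocyte-like cells (9 each). The rest lost it in at least 1. Thinning called Tgfb1 in unnamed cluster 1 (1.23) and moved Csf1 (0.013) and Hdc (0.14) in basophil or mast cell-like cells and Angpt1 in HSPC-like cells (0.011; -0.12 at Leiden resolution 2.0). Csf1 in basophil or mast cell-like cells was 0.023 with doublets kept. Equal cluster weights gave Il1b in mature neutrophil-like cells -0.030. Pdgfa in plasmacytoid dendritic cell-like cells was called lower with doublets kept (-0.59) and at resolution 0.5 (-0.60). Against 11 pairs called higher and 8 lower, a mean over cells, which uses size alone, gave 20 and 21, thinning 3 and 4, equal weights 5 and 3, and a minimum of 100 UMIs 1 and 2. All cells gave 7 higher. List genes called higher were 24, and 11 at 100 UMIs. Leaving out the highest cell, chosen after seeing the data, gave 8 and 6. Fewer than 160 pairs had a value under thinning (70), equal weights (71, in classes of several clusters) and at 100 UMIs (83); for the others the cause was not tested. The leading class stayed the same at all 7 clusterings except for Tgfb1 and Pdgfa. Unnamed clusters could not be matched across clusterings, and pairs under 20 UMIs have no value there. No paired analysis was possible because there was 1 library per diet. Depth limits rare members most, above all Pdgfa, and counting intervals do not cover differences between animals.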

Other observations

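Stromal-like cells were too few to compare, with 10 in HFD and 11 in ND. They held 17 Csf1 UMIs in HFD and 18 in ND, which is 382 CPM (222 to 611) in HFD and 347 CPM (205 to 548) in ND. Angpt1 had 9 UMIs in HFD and 9 in ND. Vegfa had 9 UMIs in HFD and 7 in ND. Tnf, Il1b and Hgf had 0 UMIs in both libraries.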
